A study of Mus musculus with 12 samples.

Results

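The tricarboxylic acid (TCA) cycle enzymes studied here were the products of 9 genes: Cs, Suclg1, Sucla2, Sdha, Sdhb, Sdhc, Sdhd, Fh1 and Mdh2. They were taken by name from the 19937 genes that had a probe set with a single gene symbol, and each of the 9 was read by exactly 1 probe set. A probe set is the group of probes that together read a transcript. RNA came from hearts of mice carrying mutant IDH2 R140Q (4 arrays), mutant IDH2 R172K (4 arrays) and control mice (4 arrays). IDH2 is the mitochondrial isocitrate dehydrogenase that uses NADP, and both substitutions are known to make it convert 2-oxoglutarate to D-2-hydroxyglutarate. All mice mixed the C57BL/6, 129/sv and Balb/c strains. Mutant mice were given 2 mg of 4-hydroxytamoxifen (4-OHT), a drug commonly used to activate Cre recombinase, on 3 days from 5 weeks of age. The labels leave unstated what controls were given, the Cre driver, the form of the mutant allele and the age at dissection, so an effect of the drug or of Cre cannot be told apart from that of the mutation. The labels number the arrays of each group as replicates without naming separate animals, and p-values measure the spread between these arrays. Below, a heart stands for the sample of 1 array. Values are log2 of the RMA intensity, a background-corrected and normalised probe set brightness, so a difference of 1 is a doubling. Array medians lay between 74.8 and 78.0 on the linear scale. Levels are compared between hearts for the same gene, not between genes.

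The TCA cycle runs in the mitochondrial matrix and oxidises acetyl groups from fatty acids, ketone bodies and pyruvate. It supplies most of the electrons that the respiratory chain of heart muscle uses. Citrate synthase joins acetyl-CoA to oxaloacetate, isocitrate dehydrogenases and the 2-oxoglutarate dehydrogenase complex follow, and succinyl-CoA ligase releases succinate. Succinate dehydrogenase, which is also complex II of the respiratory chain, makes fumarate, fumarate hydratase makes malate, and malate dehydrogenase restores oxaloacetate.

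Of the 9 genes, 3 fell and 1 rose in R172K hearts against control hearts, and none changed in R140Q hearts. The genes that fell were Fh1 (fumarate hydratase), Sdhc (a membrane anchor of succinate dehydrogenase) and Mdh2 (mitochondrial malate dehydrogenase), by 0.52, 0.42 and 0.23 on the log2 scale. The gene that rose was Sdhd, which encodes the other membrane anchor of the same complex, by 0.36. Changed here means an adjusted p under 0.05 in limma's moderated test, with Benjamini-Hochberg adjustment over all 19937 genes. Of all genes, 13.0% passed in R172K against control hearts and 2.20% in R140Q against control hearts.

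RefSeq promoter sequences (assembly GRCm38.p6) were matched for 8 of the 9 genes, all but Sdhc. Those of Fh1 and Mdh2, which fell in R172K hearts, and of Sdhd, which rose, are shown so that changed genes of opposite direction can be read side by side. Each line gives the 250 bases before the annotated start, 5′ to 3′ on the gene's strand, and capitals mark exact matches on either strand to 1 of the 5 motifs searched.
Fh1 upstream, chr1:175625636-175625885, minus strand: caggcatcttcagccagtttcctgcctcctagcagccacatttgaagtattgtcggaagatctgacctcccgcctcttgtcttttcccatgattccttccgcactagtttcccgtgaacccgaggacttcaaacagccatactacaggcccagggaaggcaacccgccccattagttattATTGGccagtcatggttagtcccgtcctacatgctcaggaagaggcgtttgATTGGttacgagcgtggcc
Mdh2 upstream, chr5:135778399-135778648, plus strand: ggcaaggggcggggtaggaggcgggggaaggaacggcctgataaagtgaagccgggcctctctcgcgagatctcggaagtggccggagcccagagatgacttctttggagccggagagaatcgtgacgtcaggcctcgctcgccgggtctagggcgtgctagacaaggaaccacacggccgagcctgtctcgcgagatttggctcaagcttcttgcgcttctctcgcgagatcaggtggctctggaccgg
Sdhd upstream, chr9:50603850-50604099, minus strand: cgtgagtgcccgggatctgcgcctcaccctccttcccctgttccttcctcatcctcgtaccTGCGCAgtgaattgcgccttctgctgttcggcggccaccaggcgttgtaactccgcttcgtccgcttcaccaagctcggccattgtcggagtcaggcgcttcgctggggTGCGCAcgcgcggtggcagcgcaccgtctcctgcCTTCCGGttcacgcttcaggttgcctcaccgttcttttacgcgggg
The motifs were CCGGAAG (bound by ETS factors such as GABPA), TGCGCA (the core of the NRF1 site, identical on both strands), AAGGTCA (the estrogen-related receptor site), AAGATGG (YY1) and CCAAT. The Sdhd window held 1 ETS match and 2 NRF1 matches. Among all 32851 promoter windows of this length, 6.91% held the ETS letters and 6.43% the NRF1 letters. Neither motif was found in the Fh1 or Mdh2 window. Over all 8 windows, the ETS letters occurred in that of Sdhd alone and the NRF1 letters in those of Sdhd and Sdha, with 2 matches in each, although the R172K difference of Sdha was negative and did not pass. CCAAT, present in 33.8% of all windows, occurred 2 times in the Fh1 window and was not found in those of Mdh2 or Sdhd. AAGGTCA and AAGATGG, present in 4.08% and 4.49% of windows, were not found in any of the 8. A match describes letters only and does not show a binding site.

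Citrate synthase (Cs) catalyses the step by which acetyl-CoA enters the cycle. Its log2 intensity was 12.38, 12.48, 12.35 and 12.27 in R140Q hearts 1 to 4 and 12.50, 12.49, 12.45 and 12.11 in R172K hearts 1 to 4, against 12.53, 12.61, 12.61 and 12.60 in control hearts 1 to 4. Every mutant heart of either kind lay below every control heart. R140Q hearts differed from control by -0.22 ± 0.09 (SE; limma adjusted p = 0.21) and R172K hearts by -0.20 ± 0.09 (adjusted p = 0.151), so neither passed. R172K heart 4 lay well below the other R172K hearts, and without it the R172K difference was -0.11 (adjusted p = 0.335).

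Succinyl-CoA ligase consists of a common alpha subunit, Suclg1, joined to an ATP-forming beta subunit, Sucla2, or a GTP-forming beta subunit, Suclg2. Suclg1 lay between 10.23 and 10.68 in R140Q hearts and between 10.11 and 10.69 in R172K hearts, against 10.53 to 10.66 in control hearts. Sucla2 lay between 11.65 and 11.88 in R140Q hearts and between 11.40 and 11.91 in R172K hearts, against 11.67 to 11.90 in control hearts. The groups overlapped for both genes. For R172K the difference was -0.07 for Suclg1 (95% interval -0.35 to 0.21) and -0.05 for Sucla2 (-0.28 to 0.17). Without R172K heart 4 both differences turned positive, to 0.07 and 0.05, still without passing (adjusted p = 0.714 and 0.763).

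Suclg2, which is not among the 9 genes, did change. Its log2 intensity was 9.61, 9.79, 10.20 and 9.22 in R172K hearts, against 10.33, 10.49, 10.48 and 10.45 in control hearts, and all R172K hearts lay below all control hearts. It fell by 0.74 ± 0.17 in R172K hearts (limma adjusted p = 0.0162), and the R140Q difference of -0.30 did not pass (adjusted p = 0.427). Without R172K heart 1 the R172K call was lost (adjusted p = 0.0527). The difference Suclg2 minus Sucla2 taken within each array averaged -1.60 ± 0.16 (SD, n = 4) in R140Q hearts and -2.02 ± 0.21 in R172K hearts, against -1.33 ± 0.11 in control hearts. Only the shifts of this difference between groups can be read, since probe sets differ in how brightly they report a transcript. A second Suclg2 probe set, not used for the test because it was dimmer, differed by -0.64 between R172K and control hearts.

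Succinate dehydrogenase has 4 subunits, all nuclear encoded. Sdha carries the flavin and the succinate site, Sdhb carries the iron-sulphur clusters, and Sdhc and Sdhd anchor the enzyme in the inner membrane and bind heme and ubiquinone. Neither catalytic subunit passed the test. Sdha was 12.26, 12.48, 12.18 and 12.28 in R140Q hearts and 12.28, 12.37, 12.39 and 12.06 in R172K hearts, against 12.43, 12.46, 12.46 and 12.48 in control hearts. Sdhb lay between 11.88 and 12.09 in R140Q hearts and between 11.61 and 11.95 in R172K hearts, against 11.97 to 12.06 in control hearts. All R172K hearts lay below all control hearts for both genes, yet the differences of -0.18 for Sdha (limma adjusted p = 0.18) and -0.17 for Sdhb (adjusted p = 0.203) did not pass. Without R172K heart 4 they were -0.11 and -0.10.

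The membrane anchors moved in opposite directions in R172K hearts. Sdhc was 11.50, 11.72, 11.55 and 11.62 in R140Q hearts and 11.29, 11.44, 11.61 and 11.32 in R172K hearts, against 11.77, 11.98, 11.77 and 11.80 in control hearts. No mutant heart reached the lowest control heart. Sdhc fell by 0.42 ± 0.08 in R172K hearts, to 0.75 of the control level (limma adjusted p = 0.00856). In R140Q hearts the difference was -0.23 ± 0.08 and did not pass (adjusted p = 0.166).

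Sdhd was 11.29, 11.35, 11.44 and 11.15 in R140Q hearts and 11.70, 11.67, 11.56 and 11.37 in R172K hearts, against 11.18, 11.20, 11.19 and 11.31 in control hearts. The R172K hearts all lay above the control hearts, while the R140Q hearts overlapped them. Sdhd rose by 0.36 ± 0.08 in R172K hearts, to 1.28 times the control level (adjusted p = 0.0159), and the R140Q difference was 0.09 ± 0.08 (adjusted p = 0.674). Without R172K heart 1 the R172K difference was 0.31 and no longer passed (adjusted p = 0.0565). R172K heart 4 was the lowest R172K heart for Sdhd, and without it the difference was 0.42 (adjusted p = 0.00795).

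The start of Sdhd lies 52 bases from that of Timm8b, which encodes a small chaperone of mitochondrial protein import and is read from the other strand, so the window printed above lies largely over Timm8b. Both NRF1 matches of that window, 189 and 80 bases before the Sdhd start, lie past the Timm8b start. The ETS match, at 46 bases, lies between the starts of these genes. Timm8b log2 intensity was 11.18, 11.19, 11.14 and 10.94 in R172K hearts, against 11.05, 11.21, 11.01 and 11.04 in control hearts, and the groups overlapped. The difference was 0.04 ± 0.07 (limma adjusted p = 0.817), in contrast to the 0.36 of Sdhd. Mdh2 and Sdha also have a gene starting within 1000 bases on the other strand, Styxl1 and Ccdc127. Those differed by -0.04 (adjusted p = 0.787) and 0.06 (adjusted p = 0.685) between R172K and control hearts. Styxl1 was dim, with a mean log2 intensity of 5.15, below every array median, so a change in it could be missed. These neighbouring genes were chosen after the values of the 9 genes had been seen.

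Setting the subunits against each other within each array removes any shift that all of them share. Sdhc minus Sdhd was 0.21, 0.37, 0.12 and 0.47 in R140Q hearts and -0.41, -0.23, 0.06 and -0.05 in R172K hearts, against 0.60, 0.78, 0.58 and 0.49 in control hearts. The 3 groups did not overlap. Sdhd minus Sdhb lay between -0.38 and -0.14 in R172K hearts, against -0.82 to -0.75 in control hearts. Sdha minus Sdhb, the same measure for the catalytic subunits, averaged 0.36 ± 0.04 (SD, n = 4) in R140Q hearts and 0.44 ± 0.02 in R172K hearts, against 0.45 ± 0.03 in control hearts. R172K hearts overlapped the control hearts for this pair, while R140Q hearts, at 0.31 to 0.40, all lay below the lowest control heart, at 0.42. The comparison of Sdhc with Sdhd was picked for its size after the values were known and is given as a description.

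**Figure D1:**
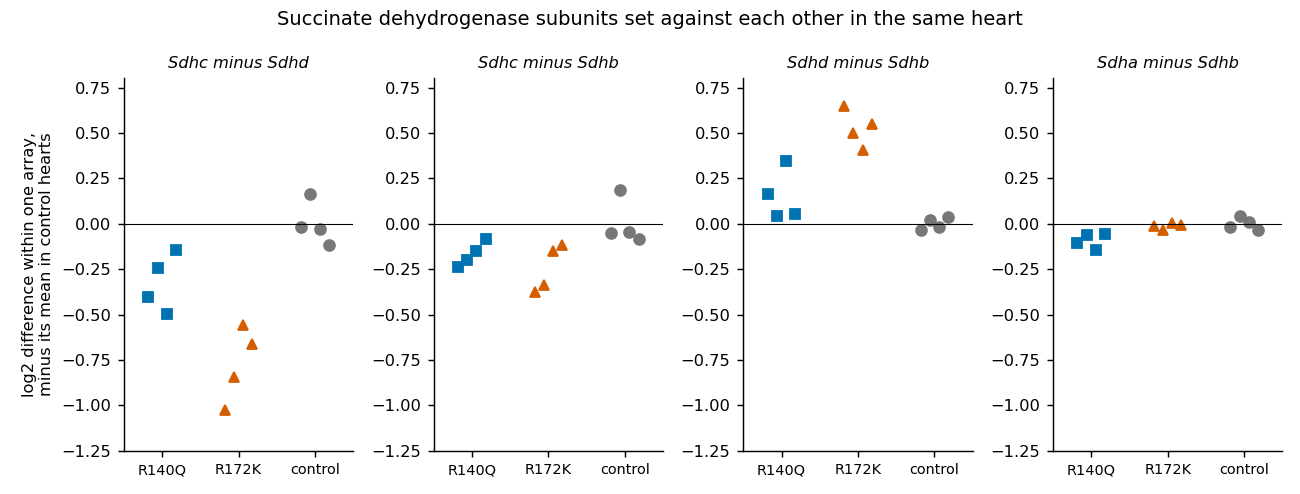
Differences in log2 intensity between succinate dehydrogenase subunits within one array (y axis, after subtracting the mean of the control hearts), for R140Q, R172K and control hearts (x axis), with 1 point per heart. Sdhc minus Sdhd separates the 3 groups, while for Sdha minus Sdhb the R172K hearts overlap the control hearts and the R140Q hearts lie below them.

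Of the assembly factors that build succinate dehydrogenase, all 4 were measured. Sdhaf4, which helps to mature the flavin subunit, fell by 0.68 ± 0.14 in R172K hearts (limma adjusted p = 0.00966), with 6.79, 6.82, 7.33 and 6.70 in R172K hearts, against 7.49, 7.94, 7.56 and 7.38 in control hearts. Every R172K heart lay below every control heart. Sdhaf4 was also lower in R172K than in R140Q hearts, by 0.79 (adjusted p = 0.0287), and its R140Q difference from control was 0.11. The fall against control passed whichever array was left out, while the difference between the mutants was lost without R140Q 1, 3 or 4 or R172K 1 or 2 (highest adjusted p = 0.106). Sdhaf1, Sdhaf2 and Sdhaf3 differed by -0.06 to 0.06 between R172K and control hearts and did not pass.

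Fumarate hydratase (Fh1) showed the largest R172K difference of the 9 genes. Its log2 intensity was 11.32, 11.49, 11.10 and 11.18 in R140Q hearts and 10.91, 11.00, 11.31 and 10.82 in R172K hearts, against 11.47, 11.61, 11.53 and 11.53 in control hearts. All R172K hearts lay below the control hearts, and R172K heart 3 lay closest to them. Fh1 fell by 0.52 ± 0.11 in R172K hearts, to 0.70 of the control level (limma adjusted p = 0.00945). In R140Q hearts the difference was -0.26 ± 0.11 (adjusted p = 0.239), and R140Q heart 2 overlapped the control hearts. Fh1 and Sdhc passed in R172K hearts in all 22 alternative fits, among them those without any 1 array.

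Mitochondrial malate dehydrogenase (Mdh2) closes the cycle. It was 12.59, 12.71, 12.61 and 12.68 in R140Q hearts and 12.57, 12.59, 12.64 and 12.45 in R172K hearts, against 12.71, 12.86, 12.81 and 12.81 in control hearts. The R172K hearts lay below all control hearts, and R140Q heart 2 overlapped control heart 1. Mdh2 fell by 0.23 ± 0.06 in R172K hearts, to 0.85 of the control level (limma adjusted p = 0.028). The change is small, and it no longer passed without control 2, 3 or 4 or R172K 1, 2 or 4 (adjusted p from 0.0521 to 0.0841), while the difference stayed between -0.24 and -0.19. With the replicate number as a block the adjusted p was 0.0536. Mdh1, the cytosolic enzyme of the malate-aspartate shuttle, differed by -0.03 (adjusted p = 0.803).

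**Figure D2:**
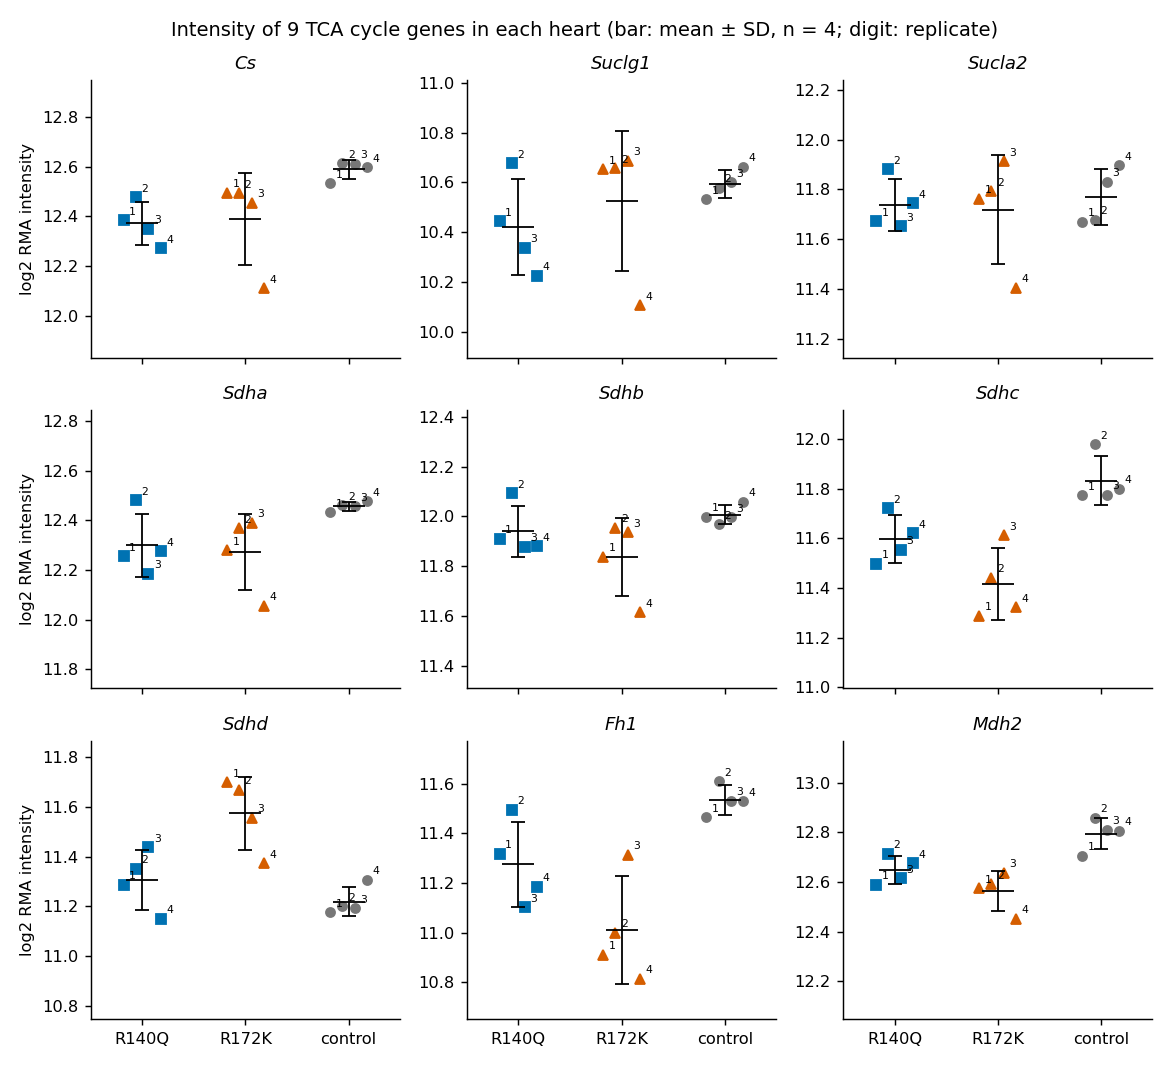
Log2 RMA intensity (y axis) of each of the 9 genes in R140Q, R172K and control hearts (x axis). Each point is 1 array with its replicate number, bars give the mean ± SD of 4 arrays, and every panel spans the same log2 range. Fh1, Sdhc and Mdh2 lie lower and Sdhd higher in all R172K hearts than in any control heart.

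Across the 9 genes, the direction against control was negative for 8 in R140Q hearts and for 8 in R172K hearts, with Sdhd the exception in both. These comparisons share the control arrays. The median difference was -0.16 for R140Q and -0.18 for R172K, where the median of all genes tested was 0.0030 for R140Q and -0.0033 for R172K. The count that passed for R172K, 3 lower and 1 higher, stands beside 6.78% of all genes called lower and 6.23% called higher. All R172K hearts lay below all control hearts for 6 of the 9 genes and above them for 1, where 8.72% of all genes showed the lower pattern and 7.47% the higher one. For R140Q it was 2 of 9 below, Cs and Sdhc, where 7.04% of all genes did so. Among the 753 genes at least as bright as the dimmest of the 9, 27.0% passed in R172K against control hearts and 16.1% were lower.

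**Figure D3:**
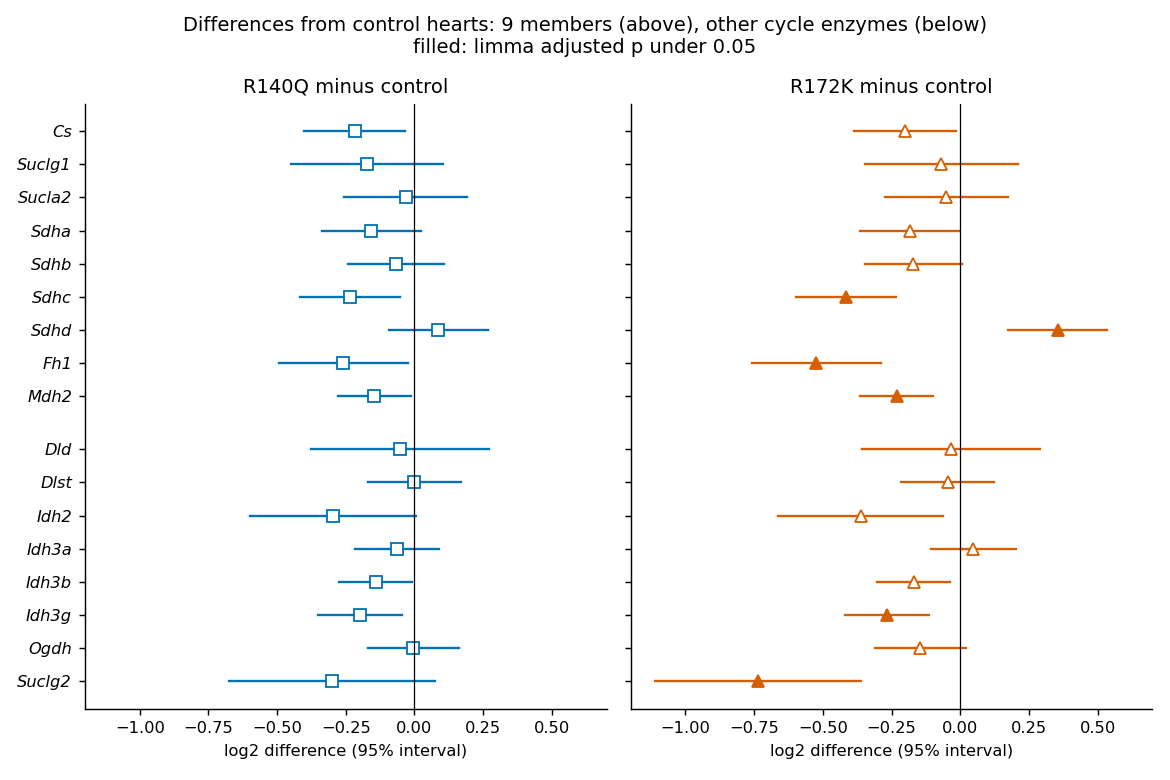
Log2 differences from control hearts (x axis) with 95% intervals from limma for the 9 genes and 8 other cycle enzymes (y axis), R140Q at left and R172K at right. Filled symbols passed at an adjusted p under 0.05. In R172K hearts Sdhc, Fh1, Mdh2, Idh3g and Suclg2 are filled below 0 and Sdhd above 0, and none is filled for R140Q. Ogdhl, whose intensity varied widely, is left out.

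No member passed in R140Q hearts with limma. Of the 9, 4 (Cs, Sdhc, Fh1 and Mdh2) had an unadjusted p under 0.05, where 3394 of all 19937 genes did. With array quality weights, which were lowest for R172K 3 and R172K 4, Cs (-0.23, adjusted p = 0.0478) and Sdhc (-0.26, adjusted p = 0.0486) passed in R140Q hearts. That fit called 1651 of all genes in R140Q hearts, where 439 were called without weights. R172K and R140Q hearts were also compared directly. None of the 9 genes passed, where 1.48% of all genes did. That share rests on single arrays, since the 296 genes called became 1 without R140Q 4 or R172K 1 and 1577 without R172K 3. Of the 9, 3 had an unadjusted p under 0.05, where 3256 of all 19937 genes did. The 3 members with an unadjusted p under 0.05 were Sdhd (0.27, 95% interval 0.09 to 0.45), Fh1 (-0.26, -0.50 to -0.03) and Sdhc (-0.18, -0.36 to -0.0011). The changes seen in R172K hearts were thus not shown to differ from those in R140Q hearts. Sdhd passed with array weights (0.34, adjusted p = 0.0162) and Fh1 without R172K 3 (-0.37, adjusted p = 0.0308). Between the mutants, array weights called 1774 of all genes in place of 296.

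Hearts within a group were not alike. R172K heart 4 was the lowest of all 12 hearts for 7 of the 9 genes, the exceptions being Sdhc, lowest in R172K heart 1, and Sdhd, lowest in R140Q heart 4. In that heart 8 of the 9 genes lay below every control heart. The count was 7 for R140Q heart 1, 8 for R140Q hearts 3 and 4, 6 for R172K hearts 1, 2 and 3, and 2 for R140Q heart 2. The matching shares of all genes were not counted for single hearts. These counts therefore describe the hearts and cannot be set against a background. Without R172K heart 4 the median R172K difference of the 9 genes was -0.11 rather than -0.18, and 3 of them, Sdhc, Sdhd and Fh1, still passed. Without R172K heart 1 only Sdhc and Fh1 passed.

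**Figure D4:**
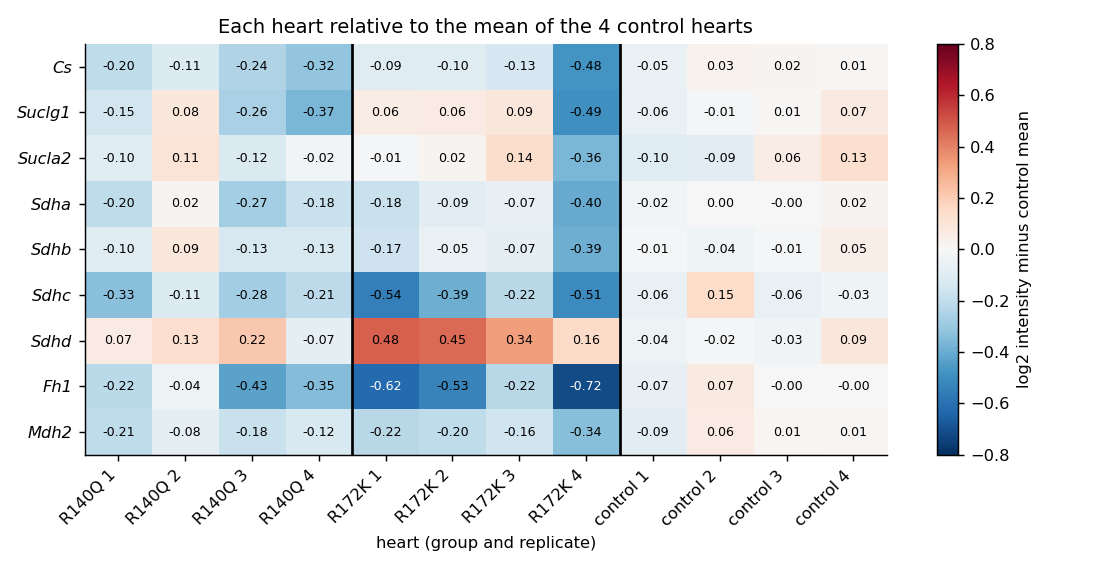
Log2 intensity of each of the 9 genes (rows) in each heart (columns) minus the mean of the 4 control hearts, in colour and as a number. The R172K 4 column is the most negative for most genes, and the Sdhd row is positive in all R172K hearts.

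Markers of several cell types of the heart also differed between the groups. All 12 cardiomyocyte markers were measured, with group mean log2 intensities of 11.98 or more, and their summed linear intensity was 104658 to 111658 in R140Q hearts and 86016 to 107543 in R172K hearts, against 115214 to 121020 in control hearts. In R140Q hearts 0 of 12 passed with limma, with 5 at an unadjusted p under 0.05, where 3394 of all 19937 genes had one. In R172K hearts 7 of 12 fell, where 6.78% of all genes did, and R172K heart 4 had the lowest sum. The count was 1 without control 1 or R172K 1, 2 without control 2, R172K 2 or R172K 4, and 3 without control 3 or 4. Of 10 fibroblast markers 5 rose and of 10 macrophage markers 2 rose in R172K hearts, where 6.23% of all genes rose. The fibroblast count was 3 without control 1, control 2 or R172K 1. The macrophage count was 0 without control 1, control 2, R172K 1 or R172K 2, 1 without R172K 4 and 7 without R172K 3. R172K heart 4 had the highest sum of both lists, 25403 for fibroblast and 8708 for macrophage markers, where control hearts reached 16409 and 4598. Endothelial markers summed to 15602 to 15944 in R140Q hearts and 14256 to 17264 in R172K hearts, against 12766 to 13369 in control hearts, so all mutant hearts lay above all control hearts. Of these 10 markers 3 rose in R140Q hearts, where 216 of all 19937 genes rose, and 2 in R172K hearts, where 6.23% did. The R140Q count was 0 without control 1 or R140Q 3 and 1 without control 3. Smooth muscle and pericyte markers summed to 9174 to 9824 in R140Q hearts and 8707 to 10387 in R172K hearts, against 7740 to 9098 in control hearts. Of these 8 markers 2 rose in R172K hearts, or 1 without control 4 or R172K 1, and 0 passed in R140Q hearts with limma, with 2 at an unadjusted p under 0.05. The 2 that rose were Rgs5 (0.29), the brightest of the list, and Pdgfrb (0.53). In R172K hearts 4 of the 8 had negative differences: Acta2 (-0.51), Myh11 (-0.10), Cnn1 (-0.08) and Kcnj8 (-0.06). Adipocyte markers summed to 701 to 875 in R140Q hearts and 806 to 984 in R172K hearts, against 533 to 779 in control hearts. Of 7 measured, 1 rose in each mutant: Cidea, the brightest of them, by 0.62 in R140Q and 1.01 in R172K hearts. In each mutant 5 of the 7 had negative differences, so the sums do not show a rise shared by the list. The R140Q call was lost in 10 of the 12 fits that left out 1 array. In whole-heart RNA, fewer cardiomyocytes and less RNA per cardiomyocyte cannot be told apart, and the part of cell composition in the differences was not tested. Atrial markers summed to 729 to 9996 in R140Q hearts and 10840 to 20351 in R172K hearts, against 27965 in control heart 3 and 6000 or below in the other control hearts. Lung epithelium markers summed to 5076 in R140Q heart 4, where the other hearts of all groups lay at 335 or below. Without control 3, R140Q 4 and R172K 3 together, the same count of 4 passed in R172K hearts.

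Other enzymes of the cycle were compared from a list of 10, of which 9 were measured. In R172K hearts 2 fell, Suclg2 and Idh3g, a regulatory subunit of the isocitrate dehydrogenase that uses NAD, and none rose. The share of all genes that fell was 6.78%. Idh3g fell by 0.27 ± 0.07 (limma adjusted p = 0.0281). Idh2 itself differed by -0.36 (adjusted p = 0.109). The 2-oxoglutarate dehydrogenase subunits Ogdh (-0.14, adjusted p = 0.252), Dlst (-0.05, 0.778) and Dld (-0.03, 0.921) did not pass. In R140Q hearts none of the 9 passed with limma, and 2 had an unadjusted p under 0.05, where 3394 of all 19937 genes did. Ogdhl, an isoform of Ogdh, varied widely and differed by 0.79 (95% interval -1.21 to 2.79). Without R172K heart 1 neither Suclg2 nor Idh3g passed in R172K hearts, and Idh3g also lost its call without any 1 control heart or R172K heart 4.

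Enzymes that bring propionyl-CoA or GABA into the succinate part of the cycle, together with Oxct1, were the list with the lowest median in R172K hearts. Of 7 genes listed 6 were measured. All 6 had negative differences, with a median of -0.56, and 3 of them fell, where 6.78% of all genes did. Pcca, a subunit of propionyl-CoA carboxylase, fell by 0.67 ± 0.17 (limma adjusted p = 0.0211), and Oxct1, which activates ketone bodies with succinyl-CoA, fell by 0.65 ± 0.15 (adjusted p = 0.0143). Mcee, methylmalonyl-CoA epimerase, fell by 0.61 ± 0.14 (adjusted p = 0.0132), although R172K heart 3 (11.67) lay above control heart 1 (11.63). Oxct1 was 10.56, 10.66, 11.40 and 10.83 in R172K hearts, against 11.59, 11.56, 11.36 and 11.51 in control hearts, so that R172K heart 3 lay above control heart 3 and the groups overlapped. In R140Q hearts the median of the list was -0.20 and none passed with limma. Of the 6, 1 had an unadjusted p under 0.05, where 3394 of all 19937 genes did. Leaving out 1 array moved the R172K count between 2 (without control 2, control 4, R172K 1 or R172K 4) and 5 (without R172K 3). Oxct1 and Mcee passed whichever array was left out, and Pcca lost its call in those 4 fits with the count of 2.

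Anaplerotic enzymes and mitochondrial carriers went both ways. Of 17 measured, 4 rose and 2 fell in R172K hearts, where 6.23% of all genes rose and 6.78% fell. Me2, the mitochondrial malic enzyme that uses NAD, rose by 0.94 ± 0.15 (limma adjusted p = 0.00344) and was the one that also rose in R140Q hearts, by 0.68 (adjusted p = 0.0407). Of all 19937 genes, 216 rose in R140Q hearts. Me2 log2 intensity was 7.63, 7.46, 7.59 and 7.70 in R140Q hearts and 8.26, 7.96, 7.34 and 7.83 in R172K hearts, against 6.89, 7.05, 6.98 and 6.72 in control hearts. No mutant heart overlapped a control heart. The R172K call of Me2 held whichever array was left out, whereas the R140Q call was lost in 8 of 12 such fits: without any 1 control heart, R140Q 1, 3 or 4, or R172K 2 (highest adjusted p = 0.112). Slc25a10, the dicarboxylate carrier that exchanges malate and succinate for phosphate, rose by 0.53 ± 0.11 in R172K hearts (adjusted p = 0.0112). Pcx, pyruvate carboxylase, which makes oxaloacetate, fell by 0.62 ± 0.14 (adjusted p = 0.0153), and Slc25a13, an aspartate-glutamate carrier, fell by 0.55 ± 0.13 (adjusted p = 0.0166). For Pcx the groups overlapped, with R172K heart 3 (7.88) above control heart 3 (7.86). Pcx lost its call without R172K 1, and Slc25a13 without R172K 1 or control 2. Over this list 5 rose and 5 fell without R172K 3, 2 rose without control 1, 2 or 4 or R172K 1, 2 or 4, 1 fell without control 2, and 0 fell without R172K 1.

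Respiratory chain and fatty acid oxidation genes gave a frame for the size of these differences. In R172K hearts the median difference was -0.25 over 16 complex I genes, with 7 lower, -0.10 over 18 genes of complexes III, IV and V, with 6 lower, and -0.27 over 16 fatty acid oxidation genes, with 5 lower. None of these 50 genes rose, where 6.23% of all genes did. Of all genes 6.78% fell, as did 16.1% of the 753 genes at least as bright as the dimmest member. Leaving out 1 array lowered the complex I count to 1 without R172K 1, 2 without control 1, 2 or 4, 3 without control 3, R140Q 4 or R172K 4, and 4 without R140Q 1. The fatty acid oxidation count was 2 without control 2 and 3 without control 4, R172K 1 or R172K 2. Examples are Ndufs6 (-0.58, limma adjusted p = 0.0091) and Ndufs1 (-0.63, adjusted p = 0.0168) of complex I, Cox6a2 (-0.45, adjusted p = 0.00257) and Cox7a1 (-0.79, adjusted p = 0.00616) of complex IV, and Etfb (-0.70, adjusted p = 0.00649), a subunit of the electron transfer flavoprotein. Of these 5, Ndufs1 lost its call without R172K 1 (adjusted p = 0.0565), and the others passed whichever array was left out. The median of -0.18 over the 9 cycle genes lies within this range. Sdhd, with 0.36, exceeded every gene of these 3 lists, whose highest difference was 0.17. Genes of the anaplerosis and shuttle list rose by more, among them Me2 (0.94) and Slc25a10 (0.53).

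**Figure D5:**
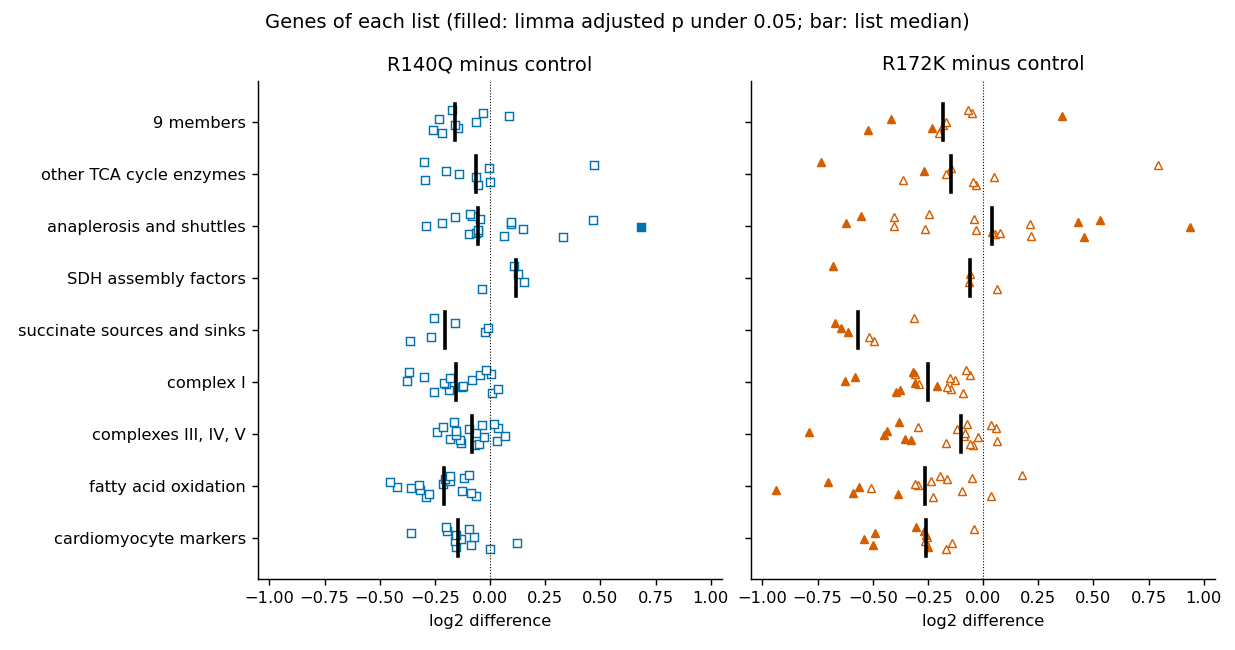
Log2 differences from control hearts (x axis) for each gene of the lists named at left, R140Q at left and R172K at right. Filled symbols passed at an adjusted p under 0.05 and black bars are list medians. In R172K hearts Sdhd is the filled point above 0 among the 9 members, and the succinate list has the lowest median.

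Genes whose profile over the 12 arrays was nearest to a changed member were found by the root-mean-square difference of log2 intensities, after each gene's mean was subtracted. For Mdh2 the nearest were Ndufb5 of complex I (0.03) and Atp5c1 and Atp5h of complex V (0.04 each), all subunits of oxidative phosphorylation. For Fh1 they were Acat1, a mitochondrial thiolase of ketone body metabolism (0.07), Gtf2i (0.07) and Trap1, a mitochondrial chaperone (0.08). For Sdhc they were Parp1 (0.04), Atp5g2 of complex V (0.06) and Dis3l (0.07). For Sdhd they were Mpp3 (0.06), Srl (0.07), which encodes the sarcoplasmic reticulum protein sarcalumenin, and Vps25 (0.07).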

How the data were processed

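Total RNA of mouse hearts was hybridised to 12 Affymetrix arrays with biotin label, per the labels' protocols. The deposited table holds 1 intensity per probe set and array, which the authors computed by RMA, according to the submitters' processing notes. Its linear scale was judged from the values. No RMA version, annotation or genome build is named in the labels, and control probe sets could not be told by name. Because RMA equalises the distributions of the arrays, it hides any change common to most genes, and precision is limited by 4 arrays per group.

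Of 34760 probe sets, 21640 had 1 symbol in the platform annotation, 1321 had several and 11799 were not listed. The brightest probe set by mean over all arrays stood for each of 19937 genes. Log2 of the intensity was taken without a pseudocount. Group means were fitted in one model with limma 3.58.1 in R 4.3.3 (lmFit, eBayes, two-sided, 9 residual and 3.54 prior degrees of freedom) and adjusted by the Benjamini-Hochberg method over all genes. The fit was tested on simulated data. Whether probes also match near-identical gene copies was not tested.

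The 9 genes, the pathway and marker lists and the alternatives were chosen with earlier results of these data known. Named genes were all 9 members, up to 4 passing genes per pathway list with the smallest p, and the 3 nearest profiles of each changed member; Timm8b, Styxl1 and Ccdc127 were added later, and genes that did not pass are named for comparison. Replicate numbers of different groups did not pair the arrays: correlations of same-numbered deviations ran from -0.336 to 0.152.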

Additional observations from a re-analysis of the deposited data

Results flagged for a closer look

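In 4 of 27 sets of 4 hearts, 1 heart stood apart from the other 3 by Dixon's test at the 95% level, which chance alone would flag in about 1 of 20 sets. Cs was 12.11 in R172K heart 4, while the other R172K hearts lay between 12.45 and 12.50. Suclg1 was 10.11 in the same heart, with the others between 10.65 and 10.69. Sdhb was 12.09 in R140Q heart 2, with the others between 11.88 and 11.91. Sdhc was 11.98 in control heart 2, with the others between 11.77 and 11.80. Without control 2 Sdhc still fell in R172K hearts, by 0.37 (limma adjusted p = 0.0303).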

How the results depend on the processing

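Each member difference was refitted under 22 alternatives. In R172K against control hearts 4 members passed, and this count was 2 at an adjusted p under 0.01 and between 2 and 4 when 1 array was left out, with 2 without R172K 1. In R140Q against control hearts the count of 0 became 2 with array weights, and it was 0 whichever array was left out. Between the mutants the count of 0 became 1 with array weights, and it lay between 0 and 1 when 1 array was left out. Of 594 refits of single members, 8 ended the call of Mdh2 and 1 that of Sdhd in R172K hearts, 4 brought a difference past the threshold, and none reversed a call. With the replicate number as a block 3 members passed in R172K hearts and 0 in the other comparisons. The block left 196 genes called in R140Q hearts where 439 were called without it, 2014 in R172K hearts where 2593 were, and 11 between the mutants where 296 were. The R140Q gene count was 1342 with the arrays of those groups alone and 1651 with array weights. Array weights called 4491 genes in R172K hearts and 1774 between the mutants. Leaving out 1 array moved the number of genes called to between 100 and 1015 in R140Q hearts, 1327 and 4157 in R172K hearts, and 1 and 1577 between the mutants. The count moved by over 1.5 times in R140Q hearts without control 1, 2 or 3, R140Q 1, 3 or 4 or any of R172K 1, 3 and 4, in R172K hearts without control 1, control 2, R172K 1 or R172K 3, and between the mutants without any array but R172K 4. With each array centred on its median, 288 genes were higher and 185 lower in R140Q hearts in place of 216 and 223.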

Other observations

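In R172K hearts 6.78% of all genes fell and 6.23% rose, and 16.1% of the 753 genes at least as bright as the dimmest member fell. Over the 5 lists closest to the cycle (the 9 members, the other cycle enzymes, anaplerosis and shuttles, assembly factors, and succinate sources and sinks), 11 of 45 genes fell and 5 rose in R172K hearts. Without R172K 1, 5 fell and 2 rose, without control 2, 7 fell and 3 rose, and 3 rose without control 1, control 4, R172K 2 or R172K 4. Among the 11 that fell with all arrays in the fit, R172K heart 3 was the highest R172K heart for all, and it lay below every control heart for 8 of them. R172K heart 4 was the lowest for 8 and R172K heart 1 for 3. The 11 genes were picked as lower on these same arrays, which favours R172K values below the controls. Matching shares of other genes were not counted, so these counts only describe the hearts.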
